A study of Homo sapiens with 2 samples.

Results

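The tripartite motif (TRIM) family comprises proteins built on a RING finger, B-box zinc fingers and a coiled coil, followed in most members by a C-terminal domain that binds the substrate. The RING finger recruits a ubiquitin-loaded E2 enzyme, so most TRIM proteins are ubiquitin ligases, and several are induced by interferon and act in antiviral defence. In stratified squamous epithelium the family is best known for TRIM29, which lacks the RING finger and is abundant in keratinocytes. Members were taken by name, as every non-control gene name on the array made of TRIM and a number with at most 1 further letter, with TRIM13 left out. This gave 66 of 43317 gene names, measured by 99 of 58201 probes.

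Ca9-22 is a human oral squamous cell carcinoma (OSCC) cell line. Ca9-22 cells received a lentivirus for DLEU1, a long noncoding RNA, or a control lentiviral vector, and both cultures were kept in 6 mg/ml blasticidin for 2 weeks. Total RNA of each was hybridised to 1 Agilent 1-colour array. With 1 array per group there was no replicate check, and no p-value or SD between cultures was computed; the sources used here do not say whether a culture was a pool or a clone. The study asked whether ectopic DLEU1 acts on interferon signaling-related genes.

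Levels are log2 processed signals minus the 75th percentile of the array, and differences are DLEU1 vector minus control vector, so 1 is 2-fold. A probe was detected where the scanner software called it well above background, and a gene takes the value of the brightest of its probes that both arrays detected. The value after ± is the scanner software's error of the difference, propagated from both arrays. The spot SD of a difference, which covers technical noise within the arrays and no variation between cultures, was 0.08 over 282 probes with replicated spots, 0.0557 in the brighter part of them and 0.37 for the 3 whose mean level was under -2. The arrays had 27731 and 27969 detected probes, respectively. DLEU1 rose from 3.17 to 5.91 on probe A_23_P151337, by 2.74, and by 0.85 and 0.54 on its dimmer probes.

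The family matched its label in part. Of the 66 names, 65 are current RefSeq symbols, 64 of them protein coding. TRIM16L is listed there as a transcribed pseudogene, and TRIM78P had no match. The list of members without a RING finger held 5 (TRIM14, TRIM16, TRIM16L, TRIM29 and TRIM44). The name ubiquitin ligase does not cover these in the usual sense. Protein sequences were not at hand, so the list may miss other members without a RING finger. On the array 47 members (71.2%) were detected on both arrays, against 46.7% of all gene names. These sets are unlike, since all gene names include many noncoding ones. The share among protein-coding names was not computed. The 8 epithelial marker genes were all detected on both arrays.

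The response of the family was mixed and centred on 0. Of the 47 members detected on both arrays, 23 were above 0 and 24 below, with a median of -0.0003, where all 20246 detected genes had a median of -0.07. The middle of the family ran from -0.32 to 0.39 between its quartiles, against -0.52 to 0.41 for all genes. A total of 32 members differed by less than 0.5 either way. At least 2-fold higher with the DLEU1 vector were 5 members (TRIM29, TRIM62, TRIM4, TRIM50 and TRIM38), or 10.6%, where 9.18% of all detected genes were. At least 2-fold lower were 3 members (TRIM14, TRIM61 and TRIM15), or 6.38%, against 9.78% of all genes. Among protein-coding genes, to which 64 of the members belong, the shares were 8.98% higher and 11.4% lower. Neither share of the family lay far from that of the array as a whole.

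**Figure D1:**
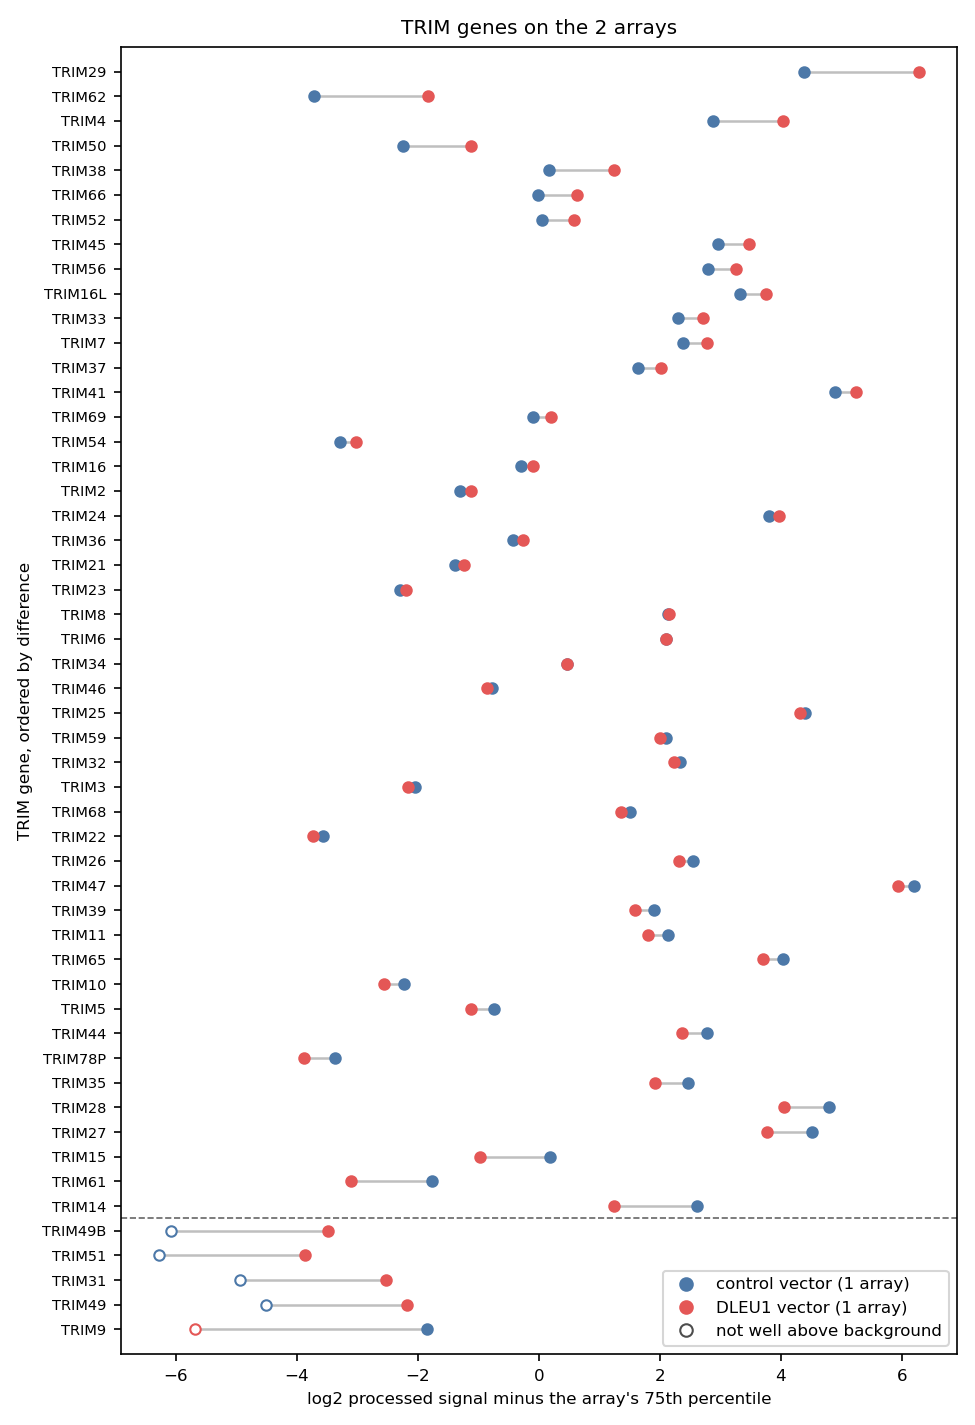
Levels of each TRIM gene detected on at least 1 array (x axis, log2 processed signal minus the 75th percentile of the array; 1 array per group), ordered by difference, with open circles for values not well above background. TRIM29 has the widest gap among genes detected on both arrays (4.38 to 6.28), TRIM14 falls from 2.62 to 1.25, and the 5 genes under the dashed line were detected on 1 array only.

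TRIM29, a RING-less member abundant in squamous epithelium, showed the largest increase among members detected on both arrays. It went from a level of 4.38 to 6.28, by 1.90 ± 0.20 or 3.73-fold, on its only probe (A_23_P203267, chr11:119982283-119982342, hg19, minus strand). The difference stayed between 1.44 and 2.15 under the processing alternatives. TRIM16, an estrogen-responsive B-box protein also linked to keratinocyte differentiation, had levels of -0.30 and -0.09, a difference of 0.20 that turned to -0.26 with spike-in scaling. Its near-copy TRIM16L had levels of 3.32 and 3.75, a difference of 0.43 that turned to -0.03 with spike-in scaling. Since TRIM16 and TRIM16L are near-identical, their probes may share transcripts, and their values are uncertain in this respect.

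Most, but not all, markers of the squamous cell type were also higher on the array of the DLEU1 vector. Of the 8 epithelial markers, 5 were at least 2-fold higher with the DLEU1 vector, where 9.18% of all detected genes were. These were KRT6A (2.91), KRT14 (2.85), KRT5 (2.10), DSP (1.37) and CDH1 (1.04). The others were TP63 (0.96), ITGB4 (-0.09) and EPCAM (-0.78). With median scaling 4 of the 8 were at least 2-fold higher, and with spike-in scaling 3 were, with 1 lower. On the linear scale the levels of the 8 summed to 525 on the control array and 1640 on the other. Markers of other cell types were detected in part. Among 6 fibroblast markers COL1A2, COL3A1 and DCN were detected on neither array, LUM on the DLEU1 vector array only, PDGFRB differed by -0.33, and COL1A1 rose from 0.47 to 4.47. Among 4 endothelial markers PECAM1 and KDR were detected on neither array, CDH5 differed by -0.59, and VWF rose from -2.33 to 1.37. Of 5 leukocyte markers, CD3E was not detected, LYZ and CD68 had no probe under that name, and PTPRC and CD14 had levels under 0 on both arrays. The summed linear levels were 1.55 and 22.4 for the fibroblast, 0.46 and 2.76 for the endothelial and 0.601 and 0.524 for the leukocyte markers on the arrays of the control and the DLEU1 vector. Among the fibroblast and endothelial markers detected on both arrays, only COL1A1 and VWF rose. The rise of these sums therefore rests mainly on 1 gene each. The part of these shifts in the TRIM values was not tested. Both samples were cultures of 1 cell line. In their bulk RNA a change in the share of a cell type and a change in RNA per cell cannot be told apart.

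The interferon-responsive members were examined because the study concerned interferon signaling. As background, interferon-stimulated promoters carry a response element made of GAAA repeats. RefSeq promoter sequences (GRCh38.p14, 250 bases before to 50 after the start site) were at hand for 51 of the 66 members. The letters GAAANNGAAA, searched on both strands (TTTCNNTTTC on the other), stood in 9 of these 51 (17.6%) and in 3.65% of 27305 promoters taken from all genes. Of the members listed as interferon-responsive, 6 of 11 with a promoter sequence held them. These 6 windows are shown, read along the gene's strand, because they carry the letters in members that the array measured, with the matched letters in capitals.
TRIM14: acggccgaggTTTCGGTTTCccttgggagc
TRIM21: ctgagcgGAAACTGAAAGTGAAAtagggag
TRIM26: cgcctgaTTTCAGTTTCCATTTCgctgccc
TRIM34: gccccaaaaaTTTCACTTTCatttctcagg
TRIM5: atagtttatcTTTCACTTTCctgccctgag
TRIM69: ctaatgagggTTTCTCTTTCtcttaagcaa

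The windows lie at chr9:98119229-98119258 (TRIM14, minus strand), chr11:4393663-4393692 (TRIM21, minus), chr6:30213578-30213607 (TRIM26, minus), chr11:5624901-5624930 (TRIM34, plus), chr11:5685082-5685111 (TRIM5, minus) and chr15:44736456-44736485 (TRIM69, plus). TRIM21 and TRIM26 held 2 overlapping matches each, and the capitals span both. The match began 26 bases before the start site in TRIM14 (position -26), at -27 in TRIM5 and 18 bases after it in TRIM21. Other members with the letters were TRIM2, TRIM16 and TRIM44. A match is a description of the letters and not evidence of binding.

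Holding these letters did not go with a common direction on the arrays. The 9 members with the motif were all detected on both arrays and had a median difference of -0.0025, from -1.37 (TRIM14) to 0.30 (TRIM69). The 26 detected members with a promoter sequence but without these letters had a median of 0.05, from -1.35 to 1.89.

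Of the 12 interferon-responsive members 11 were detected on both arrays. Their median difference was -0.0025, with 4 above 0 and 7 below. It ran from -0.47 with spike-in scaling to 0.11 with loess, so its sign depended on the scaling. Relative to the median of all genes it was 0.07 higher, from 0.04 with normexp to 0.11 with quantiles. That is small beside the spread of the members. TRIM38, which restrains inflammatory and interferon signaling, was 1 of only 2 of them past 2-fold. It rose from 0.16 to 1.25, by 1.09 ± 0.20 or 2.13-fold, on its only probe (chr6:25984697-25984756, hg19, plus strand), and came under 2-fold in 3 alternatives (0.98 with median scaling, 0.63 with spike-in scaling and 0.91 with normexp).

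TRIM14, an adaptor of antiviral signaling at mitochondria, moved the other way. Its brightest probe (A_23_P216655, chr9:100847234-100847293, hg19, minus strand) went from 2.62 to 1.25, a difference of -1.37 ± 0.20 or 2.59-fold lower. Another 3 TRIM14 probes differed by -1.11, -1.05 and -0.94. All 4 probes of the gene therefore lay lower with the DLEU1 vector, and the gene stayed at least 2-fold lower in the scaling and background alternatives and as a mean over its probes (from -1.83 to -1.12).

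Of the other interferon-responsive members detected on both arrays, none passed 2-fold. TRIM25, the ligase of the RNA sensor RIG-I, had levels of 4.40 and 4.31. TRIM21, a cytosolic antibody receptor, had -1.38 and -1.24, and TRIM5, which restricts retroviral capsids, had -0.75 and -1.13, a difference of -0.38. TRIM22 was near the detection limit at -3.57 and -3.73, so its difference of -0.17 ± 0.40 lay within the software error. Among the rest TRIM56, which acts in cytosolic nucleic acid sensing, went from 2.79 to 3.26, a difference of 0.48. TRIM69 went from -0.09 to 0.21, TRIM26 from 2.55 to 2.31, TRIM6 had 2.09 on both arrays and TRIM34 had 0.46 on both. TRIM31 was not detected with the control vector (-4.95) and stood at -2.52 with the DLEU1 vector, at least 2.96-fold higher, a bound that fell to 2.15-fold with spike-in scaling and 1.47-fold with normexp.

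The sensors and adaptors with which TRIM25 and TRIM56 work gave a similar spread of values. All 6 were detected, none at 2-fold, with a median of 0.13. TMEM173, which encodes the adaptor STING, went from 2.90 to 3.43 (0.53), and MAVS, the mitochondrial adaptor of RIG-I, from 3.37 to 2.66 (-0.71). With spike-in scaling the median was -0.34.

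**Figure D2:**
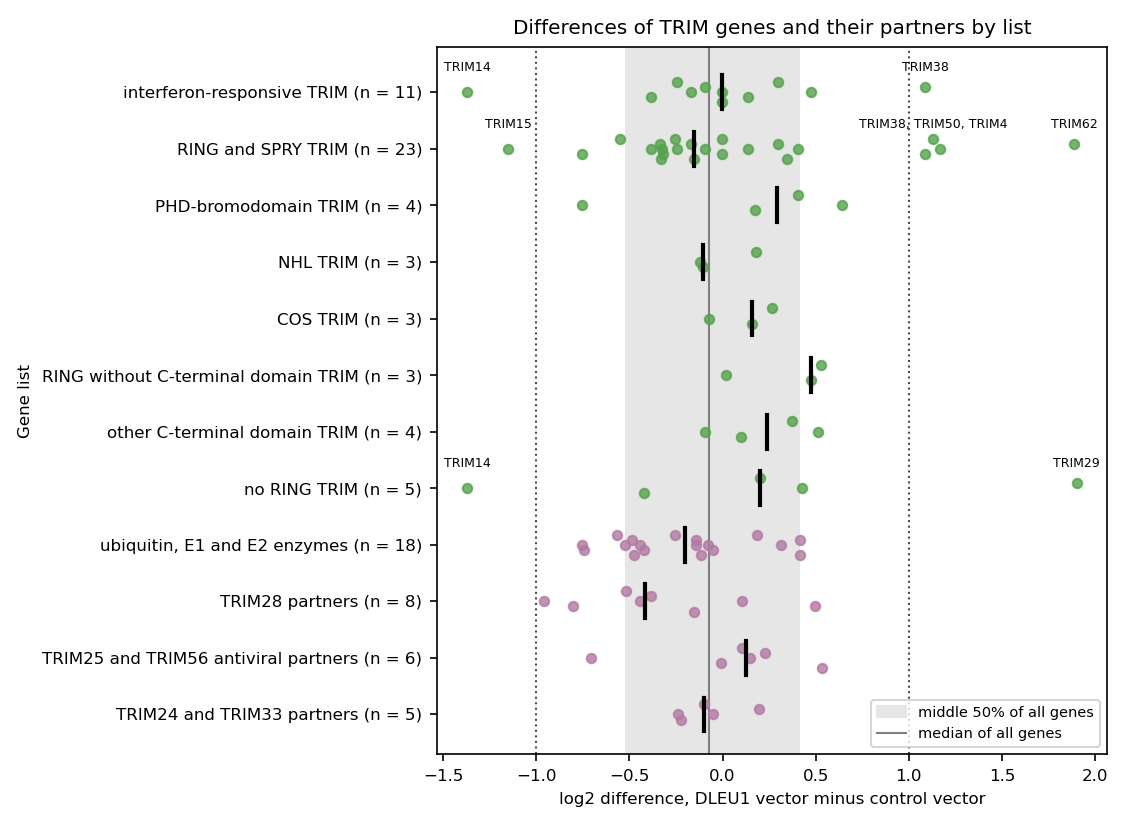
Log2 difference (x axis, DLEU1 vector minus control vector) of each gene detected on both arrays in 8 lists of TRIM genes (green) and 4 lists of partners (purple), with black bars for list medians, the grey band for the middle of all genes (-0.52 to 0.41) and dotted lines at 2-fold. TRIM29 (1.90) and TRIM62 (1.89) stand to the right and TRIM14 (-1.37) to the left, while most points of every list lie within 2-fold.

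The PHD-bromodomain members are chromatin readers and corepressors. TRIM28, the corepressor recruited by KRAB zinc finger proteins, went from 4.80 to 4.04, a difference of -0.75 ± 0.20 or 1.68-fold lower. TRIM33, a regulator of SMAD4, went from 2.30 to 2.71 (0.41), TRIM24 from 3.80 to 3.98 (0.17) and TRIM66 from -0.02 to 0.62 (0.64). The other detected probes of TRIM24 (0.08) and TRIM66 (0.67) had the same sign. TRIM28 alone of the 4 lay below 0, but with spike-in scaling TRIM24 and TRIM33 turned to -0.29 and -0.06.

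Genes of the TRIM28 repressor complex were also mostly below 0. Of 8, none passed 2-fold, 6 were below 0 and the median was -0.42, against -0.07 for all genes. CBX3 and CBX5, which encode heterochromatin protein HP1 isoforms, differed by -0.96 (7.36 to 6.40) and -0.80 (3.06 to 2.26). SETDB1, the histone methyltransferase of the complex, had the highest difference, 0.49 (3.97 to 4.46). The list median stayed below 0 under all 7 scaling and background alternatives, from -0.88 with spike-in scaling to -0.15 with loess. The partners of TRIM24 and TRIM33 had a median of -0.10 over 5 genes, from SMAD3 (3.56 to 3.32, -0.24) to SMAD4 (3.36 to 3.56, 0.20).

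The RING and SPRY class is the largest of the family, and its SPRY domain serves as the substrate-binding surface. Of 31 members, 23 were detected on both arrays, 8 above 0 and 15 below, with a median of -0.15 that ran from -0.61 with spike-in scaling to 0.0042 with loess. At least 2-fold higher were 4 of the 23 and lower was 1, where 9.18% and 9.78% of all detected genes were. The 4 were among the 5 higher members of the family, of whose 47 detected members the class made up 23. With spike-in scaling 1 of the 4 stayed at least 2-fold higher. Counts this small were not read as a trait of the class. TRIM62, a regulator of epithelial polarity, was dim and went from -3.71 to -1.83 on probe A_23_P250485 (chr1:33611508-33611567, hg19), by 1.89 ± 0.32 or 3.70-fold. The other TRIM62 probe, about as dim (-3.80 and -3.86), differed by -0.06 ± 0.44. With normexp background correction the difference of the gene came to 0.75.

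TRIM4, a ligase of RIG-I, went from 2.87 to 4.04, by 1.17 ± 0.20 or 2.25-fold, on a probe at chr7:99488681-99488740 (hg19). Its other probe (chr7:99500879-99500938) differed by -0.17 ± 0.21. The mean over both probes was 0.50, under 2-fold. TRIM50, known from gastric parietal cells, went from -2.25 to -1.12, by 1.13 ± 0.23 or 2.19-fold, while its other probe was detected on neither array. With normexp this was 0.64.

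The other class members at the edge were lower. TRIM15, found at focal adhesions, went from 0.18 to -0.97, a difference of -1.15 ± 0.21 or 2.22-fold lower (chr6:30140403-30140462, hg19), and came to -0.87 with normexp. TRIM27, a transcriptional repressor found in nuclear bodies, went from 4.52 to 3.77, a difference of -0.75, with -0.55 on its other probe. TRIM35, a further SPRY member, differed by -0.55. The remaining 16 detected members of the class lay between -0.38 (TRIM5) and 0.41 (TRIM7).

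TRIM61, which was in none of the 7 domain lists, had the second largest decrease among members detected on both arrays. It went from -1.76 to -3.11, a difference of -1.35 ± 0.29 or 2.55-fold lower, on a probe at row 125, just below a strip of damaged spots on the array of the DLEU1 vector. The 14 detected neighbouring probes (within 5 rows and 1 column) had a median difference of 0.03. Its other probe was detected on neither array, and with normexp the difference was -0.51.

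Among members detected on both arrays, the smaller classes held none past 2-fold except those listed without a RING finger. Among the NHL members, which bind RNA or cytoskeletal partners, TRIM2 had 0.18 (-1.31 to -1.13), TRIM32, mutated in a limb-girdle muscular dystrophy, had -0.10, and TRIM3 -0.12 (-2.05 to -2.17). The COS members bind microtubules. TRIM54, a muscle protein, had 0.26 (-3.29 to -3.03), TRIM36 0.16 and TRIM46, a protein of the axon initial segment, -0.07 (-0.78 to -0.85). The RING members without a C-terminal domain ran from TRIM8 (2.14 to 2.16, 0.02) to TRIM52 (0.05 to 0.58, 0.53). Those with other C-terminal domains ran from TRIM59 (2.10 to 2.01, -0.10) to TRIM45 (2.96 to 3.48, 0.51), with TRIM37 at 0.37 and TRIM23 at 0.10. TRIM44, which lacks the RING finger, had -0.42 on its brightest probe and 0.50 on the other. With spike-in scaling TRIM2, TRIM8, TRIM23, TRIM36, TRIM37 and TRIM54 fell below 0.

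Probes of the same gene were set side by side, since 17 members had at least 2 probes detected on both arrays. The range between the probes of a gene had a median of 0.43 and reached 1.95 in TRIM62, well above the spot SD. In 6 of the 17 the probes had opposite signs, and in 4 of these (TRIM4, TRIM10, TRIM39 and TRIM44) both lay beyond the spot SD of 0.08 over all probes. Dim probes had a larger spot SD. Both TRIM10 differences (-0.33 and 0.15) lay within the 0.37 for mean levels under -2. The second TRIM4 probe (-0.17) lay within the 0.18 for mean levels from -2 to 0. In 4 genes at least 1 probe passed 2-fold, and in none of the 4 did every detected probe do so, since the last TRIM14 probe stood at -0.94. TRIM7 reached 1.11 on its dimmer probe and 0.41 on its brightest. Of the 8 members called at 2-fold, TRIM29, TRIM38, TRIM50, TRIM15 and TRIM61 rested on 1 detected probe.

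**Figure D3:**
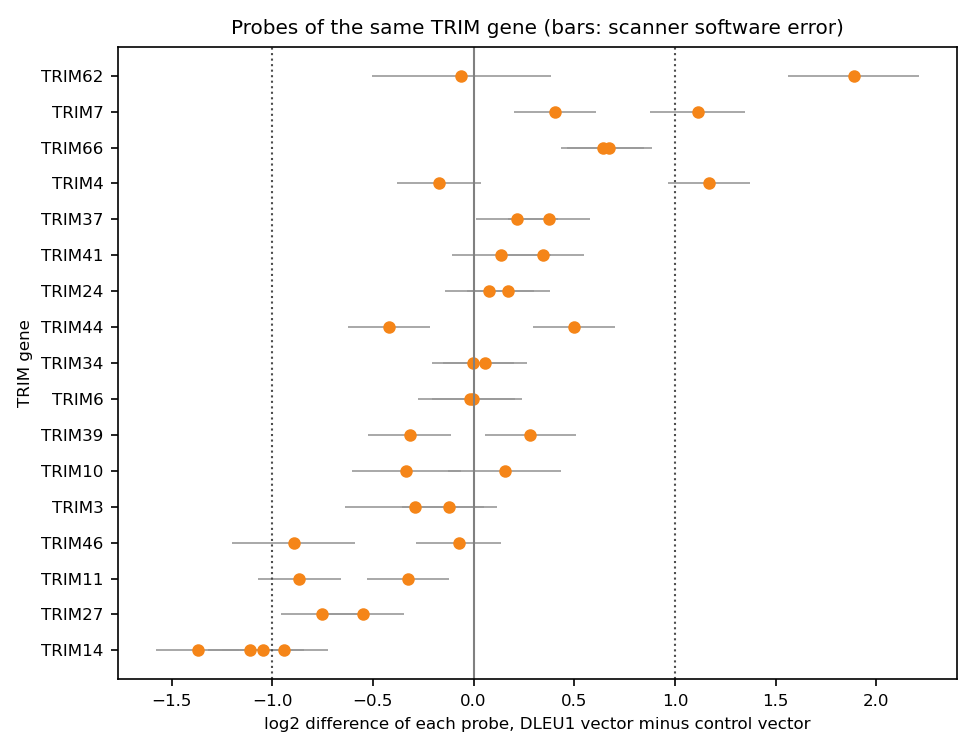
Log2 difference of each probe (points, x axis) for the 17 TRIM genes with at least 2 probes detected on both arrays, with bars for the scanner software's error and dotted lines at 2-fold. The 4 TRIM14 probes lie together between -1.37 and -0.94, while the probes of TRIM62 (-0.06 and 1.89), TRIM4 (-0.17 and 1.17) and TRIM44 (-0.42 and 0.50) lie apart.

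A total of 4 members were detected with the DLEU1 vector only, among them TRIM31, where 2.84% of all gene names were. TRIM49 went from -4.51, not well above background, to -2.18, at least 3.77-fold higher, or at least 2.73-fold with spike-in scaling and 1.61-fold with normexp. TRIM49B had -6.08 and -3.49, at least 1.52-fold higher, a bound that fell to 1.1-fold with spike-in scaling and 1.13-fold with normexp. TRIM51 had -6.29 and -3.86, at least 1.17-fold higher, a bound lost with spike-in scaling. Both stood near the lowest detected level of the DLEU1 vector array (-4.04), and the bounds leave out measurement error. The 3 genes are close relatives. The probes of TRIM49 (chr11:89531560-89531619, minus strand) and TRIM51 (chr11:55658795-55658854, plus strand; both hg19) shared an identical run of 26 of their 60 bases, and no other pair of members shared a run of 20 or more. The shared run is shown in capitals with 2 flanking probe bases on each side, because transcripts of either gene could bind both probes.
TRIM49: ccTGGAATTGGGCTTTTGGTGTCTGTAAta
TRIM51: ctTGGAATTGGGCTTTTGGTGTCTGTAAca

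The other TRIM51 probe was detected on neither array (-6.09 and -6.04). The values of TRIM49 and TRIM51 are therefore uncertain as to the gene of origin.

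TRIM9, a neuronal member, was the only one detected with the control vector only, where 2.44% of all gene names were. It went from -1.85 to -5.69, which would be at least 4.57-fold lower. Its probe (row 13, column 36) sat among the damaged spots. Of the probes in that strip lit on the control array, 37.7% were at least 2-fold lower, against 12.1% elsewhere. The 12 neighbouring probes detected on the control vector array had a median difference of -1.62. The other TRIM9 probes lay outside the strip and were detected on neither array.

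A further 14 members were detected on neither array and have no difference. They were TRIM17, TRIM40, TRIM42, TRIM43, TRIM48, TRIM55, TRIM58, TRIM60, TRIM63, TRIM64, TRIM67, TRIM71, TRIM72 and TRIM77. TRIM55, TRIM63 and TRIM72 are proteins of striated muscle, TRIM71 belongs to embryonic stem cells and TRIM58 to red cell precursors.

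Several members lie next to each other in the genome, and 28 fell into 9 groups whose neighbouring probes were at most 1 Mb apart. In the group on chromosome 11 from 5633867 to 6470292 (hg19), TRIM6, TRIM34, TRIM5, TRIM78P, TRIM22 and TRIM3 all had differences below 0, from -0.51 to -0.0003, but TRIM6 and TRIM34 turned above 0 with the percentile of detected probes, quantiles and loess, and TRIM22 and TRIM34 with normexp. The group on chromosome 5 from 180630208 to 180683780 went the other way, with TRIM7 (0.41), TRIM41 (0.35) and TRIM52 (0.53), of which TRIM7 and TRIM41 turned below 0 with spike-in scaling. On chromosome 6 from 30070924 to 30311333, TRIM10 (-0.33), TRIM15 (-1.15), TRIM26 (-0.24) and TRIM39 (-0.32) were below 0, while TRIM31 passed background with the DLEU1 vector alone. The second probes of TRIM10 and TRIM39 were above 0 (0.15 and 0.28). TRIM47 (-0.26) and TRIM65 (-0.33) lay side by side on chromosome 17, and TRIM47 turned to 0.0042 with loess.

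Noncoding neighbours named after TRIM genes gave values that differed between probes, and joint movement with the TRIM genes was not tested. The antisense gene TRIM52-AS1 had 1 probe that went from 2.77 to 4.75 (1.98) and another from 0.67 to 0.34 (-0.33), beside TRIM52 at 0.53. The brighter TRIM52-AS1 probe had the sign of TRIM52 and the dimmer one did not. TRIM31-AS1 had 0.34 (-0.44 to -0.10), and TRIM31 was detected with the DLEU1 vector only. Of the other noncoding neighbours detected on both arrays, lnc-TRIM41-3 had 0.76 on 1 probe and -0.03 on another. The last, lnc-TRIM7-3, had 0.03.

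Of TRIM proteins that carry other names, 5 of 6 were detected on both arrays. PML, the organiser of nuclear bodies and an interferon-responsive gene, was level at 4.42 and 4.39. MEFV, the pyrin gene, went from -2.08 to -0.91 (1.17) and TRIML2 from -0.89 to -2.18 (-1.29). MID1 and MID2, which bind microtubules, had 0.30 and 0.21. With normexp neither MEFV nor TRIML2 passed 2-fold.

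The ubiquitin supply on which RING members draw was measured throughout. All 18 genes for ubiquitin, its E1 enzyme and E2 enzymes were detected, none passed 2-fold, and 14 were below 0 with a median of -0.20. The median came to 0.0020 with loess and to -0.66 with spike-in scaling, where all 18 were below 0 and 3 were at least 2-fold lower. With spike-in scaling all genes had a median of -0.53, and 24.1% of them were at least 2-fold lower. The lowest were UBB, a polyubiquitin gene, from 7.88 to 7.13 (-0.75), and UBE2G2 (-0.74). UBE2E2 was the highest, from -0.37 to 0.04 (0.42) on a probe in the damaged strip, next to UBE2E1 outside it, also at 0.42. UBA1, the E1 enzyme, differed by -0.14, and UBE2N, an E2 for signaling rather than degradative chains, by -0.42.

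The counts of 5 higher and 3 lower members held under scaling by detected probes, quantiles, loess and no scaling, and median scaling gave 4 and 3. Setting the spike-in probes equal moved the median of all genes by -0.46. It left 2 members at least 2-fold higher (TRIM29 and TRIM62) and 6 lower, with TRIM27, TRIM28 and TRIM35 joining TRIM14, TRIM15 and TRIM61. Of all genes 4.56% were then at least 2-fold higher and 24.1% lower, so the whole array shifted that way. With normexp, which shrinks differences of dim probes, TRIM4 and TRIM29 remained higher and TRIM14 remained lower. TRIM29 and TRIM14 passed 2-fold in the same direction under all scaling, background, filter and probe alternatives run.

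**Figure D4:**
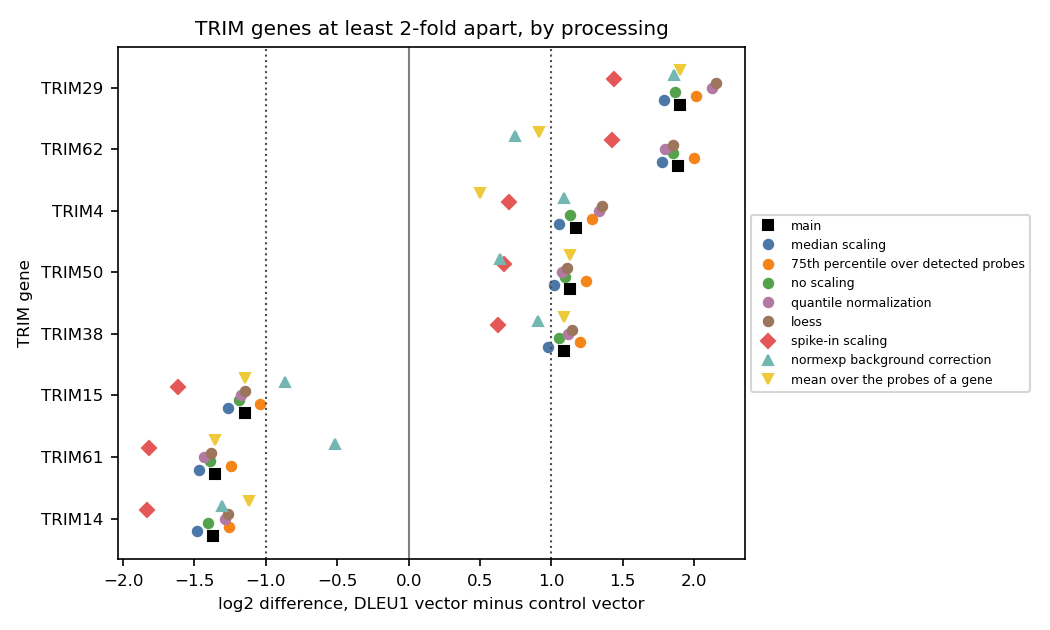
Log2 difference (x axis, DLEU1 vector minus control vector) of the 8 TRIM genes called at 2-fold under the main processing (black squares) and 8 alternatives, with dotted lines at 2-fold. TRIM29 stays above 1 and TRIM14 below -1 throughout, while TRIM62, TRIM50 and TRIM61 come inside the dotted lines with normexp (0.75, 0.64 and -0.51).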

How the data were processed

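Spots were quantified by the authors in Agilent Feature Extraction 10.7. Per the file headers the deposited intensity is background-subtracted and detrended within the array, with surrogates for dim spots. GeneSpring was used downstream by the authors. The deposited series values were the same intensities, rounded to within 0.497%. Probe positions are those of the files (hg19), and gene models of that build were not used here, so exons and UTRs are not given. From these, log2 signals were averaged over the spots of a probe after leaving out control spots and outlier spots, and the 75th percentile of each array was subtracted (Python 3.11.15, pandas 2.3.3). normexp (offset 50), quantile and loess (span 0.3) alternatives used R 4.3.3 with limma 3.58.1. No spot was saturated. The damaged strip (columns 35 to 40) was set after seeing the array layout. The calling steps were tested on simulated data, with noise of SD 0.08 given to every probe. Dim probes were noisier than that, and variation between cultures was not simulated. The test therefore does not bear on how reliable a single call is. A probe detected on 1 array gave a bound against the lowest detected signal or its own, whichever was higher. These bounds leave out measurement error.

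Members, gene lists and tests were chosen with earlier results of these data known. Named were DLEU1, members at least 2-fold apart or detected on 1 array, all interferon-responsive, PHD-bromodomain and keratinocyte-linked members, and the extremes of the other lists. Other members were named to account for the family, after their values were seen. The precision is limited by the number of arrays, 1 per group. A marker gene of the lists is not reported here.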

Additional observations from a re-analysis of the deposited data

Results flagged for a closer look

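A long noncoding transcript named after TRIM16, lnc-TRIM16-1, lies outside the family and passed background with the DLEU1 vector alone. Its log2 level was -3.63 there and -5.14 with the control vector, where it was not well above background. The bound was therefore at least 1.38-fold higher, or 0.46 in log2, which is less than the software error of 0.81. The level was also near the lowest detected on the DLEU1 vector array (-4.04). Among 34 probes of TRIM-named features outside the family, 8 were detected on both arrays, 24 on neither, this 1 with the DLEU1 vector only and 1 (lnc-TRIM63-1, -3.25 and -4.35) with the control vector only.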

How the results depend on the processing

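The alternatives changed the counts of called members and the values of single members. None of the 8 members called at 2-fold changed sign, and 11 of their 101 alternative values fell under 2-fold. Of 600 alternative values of the 47 members, 38 in 23 members had the other sign, and 376 moved by less than the spot SD. The filters and the removal of the strip leave a member's value unchanged. So does the mean over probes for members with 1 detected probe. Both totals therefore include values that could not move, and these counts overstate stability. Scaling moved the medians. The median of TRIM genes, that of the interferon-responsive members and the DLEU1 difference were -0.1135, -0.1156 and 2.6247 with median scaling; 0.1112, 0.1091 and 2.8494 with a percentile taken over detected probes; 0.0875, 0.0875 and 2.9186 with quantiles; 0.1095, 0.1095 and 2.9736 with loess; and -0.4634, -0.4656 and 2.2747 with spike-in scaling. These 5 scalings moved the median of all genes by -0.11, 0.11, 0.04, 0.08 and -0.46. Higher genes made up 48.4% of all calls, 39.0% with median scaling, 58.4% with the percentile of detected probes and 15.9% with spike-in scaling. DLEU1 was 1.378 as a mean over its probes.

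Members at least 2-fold higher and lower numbered 2 and 6 with spike-in scaling and 2 and 1 with normexp, against 5 and 3. The shares of all genes were 4.56% and 24.1% with spike-in scaling and 5.54% and 6.98% with normexp, against 9.18% and 9.78%. Higher members numbered 11 of 66 without a filter on dim probes and 9 of 52 with detection on at least 1 array. They numbered 3 of 36 with a signal of at least 100 and 3 of 47 with the mean over probes. The shares of all genes were 9.77%, 12.1%, 7.27% and 8.76%, respectively. With detection on at least 1 array, 4 members entered through the DLEU1 vector array alone and 1 through the control array. Their direction followed from the filter. At 1.5-fold 5 members were lower (22.0% of all genes), and at 3-fold 2 were higher and 0 lower (3.82% and 3.31% of all genes). The cause of the differences was not tested, except that the filters change which members are counted. Leaving out the damaged strip changed no count. No replicate could be left out, since each group had 1 array. No paired analysis was possible because each group had 1 array. Dim probes limit the differences of TRIM62, TRIM61, TRIM50 and TRIM22.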
